A study of Mus musculus with 10 samples.

Results

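The 10 genes described here make up the MYC and MAX network, a set of transcription factors that share MAX as their common partner. They were chosen by symbol (Myc, Mycl, Mycn, Max, Mxd1, Mxd3, Mxd4, Mxi1, Mnt and Mga), not by their measured values, and all 10 have a row among the 22457 genes of the count table. Of the 10, 9 passed the filter on low counts and were tested, and Mycn did not. RNA-seq compared mouse tracheal organoids, small epithelial bodies that airway basal cells form in a gel matrix. The M3-CKO group (3 libraries) came from mice that the series title gives as Mettl3 knockouts, and the Ctrl group (3 libraries) came from control mice. Mettl3 encodes the enzyme that adds the N6-methyladenosine (m6A) mark to messenger RNA. Both groups were grown in the same media, which held epidermal growth factor and retinoic acid, and were harvested on day 14. The sources used here do not give the driver of the deletion, the deleted part of Mettl3, or the strain and age of the mice. The other 4 libraries of the series, from m6A immunoprecipitation and its input, were not analysed here, so no m6A level is given for any gene.

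MYC proteins bind DNA only as dimers with MAX, at E-box sequences, and raise the transcription of genes for growth, ribosome assembly and nucleotide synthesis. MXD proteins, MNT and MGA compete for the same partner and sites, and recruit corepressors in place of coactivators. In stratified epithelia MYC is known from proliferating progenitors and MXD1 from cells that leave the cycle to differentiate. The MYC transcript is short-lived, and in human cells it is known to carry m6A that is read by IGF2BP proteins.

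Promoter sequences of 300 bases, from 250 before to 50 after each transcription start, were taken from RefSeq (build GRCm38.p6, whereas the counts were made on mm39) and matched 9 of the 10 genes by symbol, with 11 promoters in all because Mxi1 has 3. The unmatched gene was Myc. The canonical E-box of MYC and MAX, CACGTG, reads the same on both strands. It was found in the promoters of 3 of the 9 matched network genes, Max, Mxd4 and Mnt. Of all 27025 genes with a promoter sequence, 8.09% had it, and of all 32851 promoters 7.15% did. The windows of 40 bases around the 3 matches are shown because these network genes hold the binding sequence of the network itself, and the capitals mark the E-box. A match is a description of the letters and not evidence of binding. The Max window is chr12:76962229-76962268 on the minus strand, with the E-box starting 3 bases before the transcription start. The Mxd4 window is chr5:34187907-34187946 on the minus strand, with the E-box starting 219 bases before it. The Mnt window is chr11:74830784-74830823 on the plus strand, with the E-box starting 123 bases before it.
Max: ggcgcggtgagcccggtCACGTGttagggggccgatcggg
Mxd4: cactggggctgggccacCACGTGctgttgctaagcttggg
Mnt: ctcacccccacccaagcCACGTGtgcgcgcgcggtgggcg

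Total counts ran from 8906375 to 10485922 per library. Levels are given in CPM (counts scaled to library size, with TMM factors), and because the table holds no transcript lengths, levels are compared between libraries and never between genes. M3-CKO replicate 3 stood apart: its Pearson r with M3-CKO replicates 1 and 2, across genes, was 0.930 and 0.920, against 0.990 between those 2 libraries and 0.974 to 0.983 among the Ctrl libraries. Many results that rest on it are given with and without it. Mettl3 itself had 11.1, 10.3 and 9.87 CPM in M3-CKO libraries, against 14.96, 17.02 and 18.9 CPM in Ctrl libraries, with no overlap (log2 fold change -0.70, edgeR adjusted p = 0.12, and 0.043 without M3-CKO replicate 3). Reads outside the deleted part are counted too, so this value does not measure the intact transcript. In the marker lists, edgeR called 3 of 10 basal cell genes, all lower (Krt15, Krt5 and Krt14, log2 fold change -2.23 to -1.82). Over all tested genes it called 2.91%. Of 9 hillock and squamous genes, Krt4, Calml3 and Sprr1a were called lower and Lor higher, and of 10 club cell genes Scgb1a1 was called higher (5.23, and 3.825 without M3-CKO replicate 3), though not by limma-voom, which called 0 of the 10. These calls held without M3-CKO replicate 3, and each was lost when some other single library was left out. With M3-CKO replicate 3 left out, edgeR called 25.0% of all genes, and its adjusted p values rest on the narrow spread of 2 close M3-CKO libraries. It then called 9 of 10 basal genes, 8 lower and 1 higher, with a median log2 fold change of -1.31 (-0.74 with all libraries). In that fit it called 7 of 10 club cell genes, 2 higher and 5 lower, with a median of -1.09 (-0.09 with all libraries). The summed club cell markers were at 3602 to 9964 CPM in M3-CKO, highest in replicate 3, and at 7350 to 7988 CPM in Ctrl. Of 10 proliferation markers edgeR called 0, with 0 at an unadjusted p under 0.05 and 0 called by DESeq2 or limma-voom. Their sum was 490.1, 641 and 196.1 CPM in M3-CKO replicates 1 to 3, against 233.1, 712.5 and 337.5 CPM in Ctrl replicates 1 to 3. The log2 fold changes of the 10 had a median of -0.02 with 5 positive, and without M3-CKO replicate 3 a median of 0.31 with 7 positive. The 2 with the lowest p were Pcna (-0.30) and Top2a (-0.47). Of 10 ciliated cell genes 5 were tested, 4 positive and 1 negative, and edgeR called 0. DESeq2 called 1 ciliated gene, where it called 7.54% of all genes. That was Foxj1 (log2 fold change 1.53, edgeR adjusted p = 0.17, DESeq2 adjusted p = 0.027). Without M3-CKO replicate 3, edgeR called 1 of the 5, again Foxj1 (adjusted p = 0.026). Its groups overlapped, with 28.8 CPM in M3-CKO replicate 3 and 34.8 CPM in Ctrl replicate 3. Tppp3 was at 1.18 (edgeR adjusted p = 0.40). Endothelial markers summed to at most 1.14 CPM in any library. Mesenchymal markers summed to 2.40 to 3.87 CPM in M3-CKO and 4.59 to 13.25 CPM in Ctrl, and 1 of their 5 listed genes with a row was tested, Pdgfra (log2 fold change -2.04, edgeR adjusted p = 0.092, or 0.018 without M3-CKO replicate 3, and DESeq2 adjusted p = 0.0083). Immune markers summed to 476.4 to 812.5 CPM in M3-CKO and 538.7 to 1441 CPM in Ctrl, most of it Lyz2 (-0.77, adjusted p = 0.34), a lysozyme that airway epithelium can also express, while Cd74 was at 1.56 (edgeR adjusted p = 0.13, or 0.0061 without M3-CKO replicate 3, and DESeq2 adjusted p = 0.022). Of the 4 tested immune genes edgeR called 0, with 1 positive and 3 negative. Cd68 was at 37.63 to 93.34 CPM in M3-CKO and 53.07 to 81.09 CPM in Ctrl. Itgam was at 0.4068 to 5.249 CPM in M3-CKO and 4.695 to 9.547 CPM in Ctrl. Ptprc, which marks immune cells in general, was at 0 in all M3-CKO libraries and averaged 0.0705 CPM in Ctrl. The mesenchymal gene Col1a1 averaged 0.142 CPM in M3-CKO and was at 0 in all Ctrl libraries. The part of these markers in the results below was not tested, and in such bulk samples fewer cells of a type and less RNA per cell cannot be told apart.

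In the network as a whole, no member was called between M3-CKO and Ctrl organoids. At an adjusted p under 0.05 edgeR called 0 of the 9 tested members, where it called 2.91% of all 13528 tested genes (1.74% higher and 1.16% lower). DESeq2, which called 7.54% of genes, and limma-voom called 0 members as well. At an unadjusted p under 0.05 there was 1 member, Mxd4, where 20.5% of all tested genes were under it. The groups did not overlap for 1 of 9 members, again Mxd4, and for 27.1% of all tested genes. The members' median log2 fold change was -0.05, with 3 positive and 6 negative, beside 0.02 over all tested genes. Without M3-CKO replicate 3, edgeR called 2 of 9 members (22.2%), Mxd1 higher and Mxd4 lower, where it called 25.0% of all genes, and their median log2 fold change was 0.20. In that fit the M3-CKO group is 2 libraries that lie closer together than any other pair, so its adjusted p values rest on a narrow spread.

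**Figure D1:**
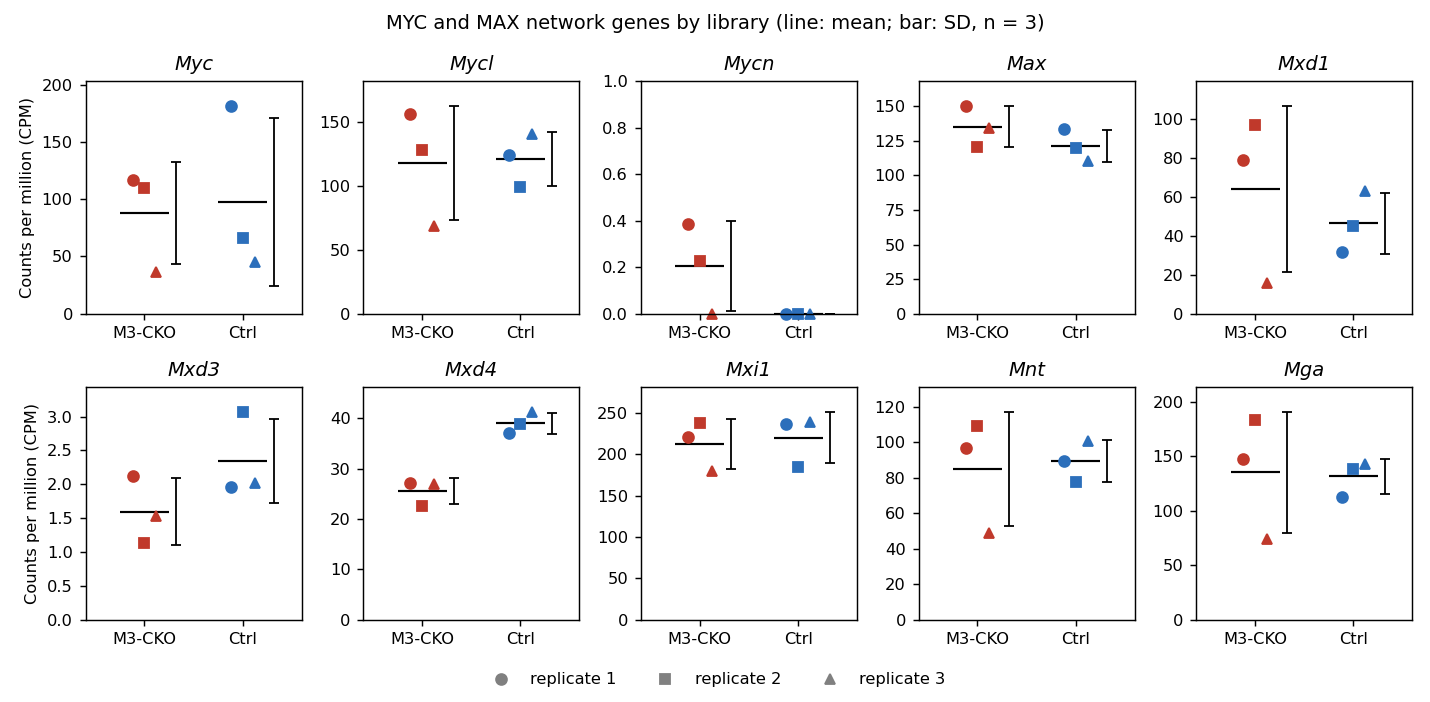
Level of each network gene in CPM (linear axis from 0, own scale per gene) in 3 M3-CKO and 3 Ctrl libraries; points are libraries, shaped by replicate number, lines are means and bars are SD (n = 3). Mxd4 is the only gene whose M3-CKO points all lie below its Ctrl points, while M3-CKO replicate 3 is the lowest M3-CKO library for Myc, Mycl, Mxd1, Mxi1, Mnt and Mga.

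Among the MYC proteins, Myc is the member best known as a growth regulator, and its transcript varied more within each group than between them. Myc had 116.5, 110.1 and 36.4 CPM in M3-CKO replicates 1 to 3, against 181.3, 65.9 and 45.0 CPM in Ctrl replicates 1 to 3. The lowest library was an M3-CKO one and the highest a Ctrl one, and the highest Ctrl library stood 4.02-fold above the lowest. The means were 87.7 ± 44.5 CPM in M3-CKO and 97.4 ± 73.4 CPM in Ctrl (SD, n = 3 each). The log2 fold change was -0.15 (SE 0.59, edgeR adjusted p = 0.91), with a 95% interval from -1.51 to 1.21. A change of over 2-fold in either direction therefore lies within the interval. The sign rests on single libraries: the log2 fold change was 0.67 without Ctrl replicate 1 (adjusted p = 0.58) and 0.21 without M3-CKO replicate 3 (adjusted p = 0.78). Ctrl replicate 1 was 1.72 above the mean of Ctrl replicates 2 and 3 for Myc on the log2(CPM + 1) scale, a gap of 1 or more that only 1.09% of tested genes reached in that direction.

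Mycl, the paralogue first described in lung tumours, had 156.2, 128.4 and 69.0 CPM in M3-CKO replicates 1 to 3, against 124.1, 98.8 and 140.4 CPM in Ctrl replicates 1 to 3. The groups overlapped, with M3-CKO libraries at both ends of the range. Its log2 fold change was -0.04 (SE 0.30, edgeR adjusted p = 0.96, 95% interval -0.73 to 0.65), and 0.23 without M3-CKO replicate 3 (adjusted p = 0.35). Mycn, the paralogue of neural and early lung progenitors, had 4, 2 and 0 counts in M3-CKO replicates 1 to 3 and 0 counts in all 3 Ctrl libraries. At this depth 3 counts correspond to 0.290 to 0.342 CPM, so Mycn was at or near the limit that a count of 0 allows in every library and no fold change is given.

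Max, the obligate partner of every other member, had a steady transcript. It had 150.2, 120.8 and 134.5 CPM in M3-CKO replicates 1 to 3, against 133.5, 119.7 and 110.5 CPM in Ctrl replicates 1 to 3. The groups overlapped narrowly, and the highest library exceeded the lowest by 1.24-fold within M3-CKO and 1.21-fold within Ctrl. The log2 fold change was 0.16 (SE 0.15, edgeR adjusted p = 0.62), and its 95% interval, from -0.20 to 0.51, holds no 2-fold change. Leaving out M3-CKO replicate 3 gave 0.16 as well.

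The tested MXD repressors had log2 fold changes of both signs. Mxd4, which encodes a MAX partner that recruits SIN3, was the member with the clearest separation. Mxd4 had 27.2, 22.6 and 26.95 CPM in M3-CKO libraries, against 37.0, 38.8 and 41.2 CPM in Ctrl libraries. Every M3-CKO library lay below every Ctrl library, and M3-CKO replicate 3 lay between the other two. The M3-CKO mean of 25.6 ± 2.60 CPM was 65.6% of the Ctrl mean of 39.0 ± 2.11 CPM (SD, n = 3 each). The log2 fold change of -0.61 (SE 0.17, 95% interval -0.99 to -0.22) had an unadjusted p of 0.0070 and missed the threshold once adjusted (edgeR adjusted p = 0.095). An exact two-sided permutation test gave p = 0.1, the smallest that 3 libraries against 3 allow. Leaving out M3-CKO replicate 3 brought a call (-0.65, edgeR adjusted p = 0.019), and over the 13 alternatives its log2 fold change stayed between -0.65 and -0.51, with adjusted p from 0.019 to 0.31.

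Mxd1, the founding MXD gene and the one tied to terminal differentiation of keratinocytes, had the widest range within M3-CKO of the tested members. It had 79.1, 97.2 and 15.8 CPM in M3-CKO replicates 1 to 3, against 31.7, 44.8 and 62.9 CPM in Ctrl replicates 1 to 3. M3-CKO replicates 1 and 2 lay above all Ctrl libraries, and M3-CKO replicate 3 lay below all of them. Within M3-CKO the highest library exceeded the lowest by 6.17-fold. With all 6 libraries the log2 fold change was 0.46 (SE 0.58, edgeR adjusted p = 0.71, 95% interval -0.89 to 1.81). Without M3-CKO replicate 3 it was 0.92 (SE 0.25, adjusted p = 0.031), which is the only alternative of the 13 that called Mxd1, and without M3-CKO replicate 2 it was 0.05 (adjusted p = 0.98).

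Mxi1, also named Mxd2, is a broadly expressed MXD gene, and its level was close in both groups. It had 220.4, 238.1 and 179.7 CPM in M3-CKO replicates 1 to 3, against 236.7, 184.3 and 239.1 CPM in Ctrl replicates 1 to 3. M3-CKO replicate 3 and Ctrl replicate 2 were the low libraries, and the log2 fold change was -0.05 (SE 0.18, edgeR adjusted p = 0.91, 95% interval -0.46 to 0.36). Mxd3, an MXD gene known from cells in S phase, was low, at 2.12, 1.14 and 1.53 CPM in M3-CKO libraries, against 1.97, 3.07 and 2.02 CPM in Ctrl libraries. These values rest on 10 to 29 counts per library, and the log2 fold change of -0.55 (SE 0.44, edgeR adjusted p = 0.53, 95% interval -1.57 to 0.47) was not resolved at this depth.

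Mnt and Mga, the large repressors that many tissues express throughout, varied more between libraries than between groups. Mnt had 96.9, 109.4 and 48.7 CPM in M3-CKO replicates 1 to 3, against 89.6, 77.4 and 101 CPM in Ctrl replicates 1 to 3. Mga had 147.9, 183.3 and 74.7 CPM in M3-CKO replicates 1 to 3, against 113, 138.9 and 142.9 CPM in Ctrl replicates 1 to 3. For both genes M3-CKO replicate 3 was the lowest of the 6 libraries and M3-CKO replicate 2 the highest. The log2 fold changes were -0.07 for Mnt (SE 0.29, edgeR adjusted p = 0.92) and 0.04 for Mga (SE 0.31, edgeR adjusted p = 0.96), and without M3-CKO replicate 3 they were 0.20 and 0.33 (adjusted p = 0.33 and 0.14).

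**Figure D2:**
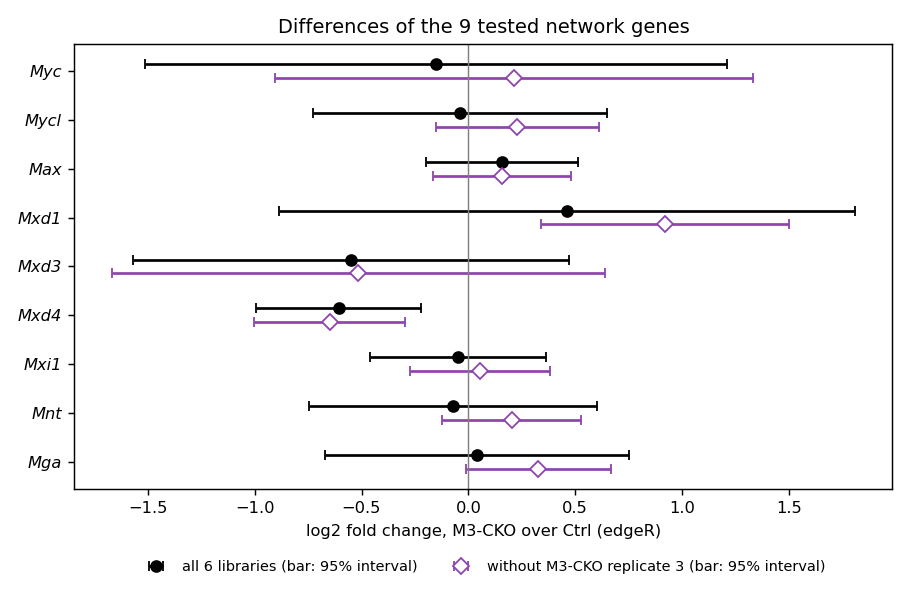
Log2 fold change (M3-CKO over Ctrl, edgeR) of the 9 tested network genes with all 6 libraries (filled circles) and without M3-CKO replicate 3 (open diamonds); bars are 95% intervals of each gene on its own, not adjusted for the number of genes. With all 6 libraries Mxd4 (-0.61) is the only gene whose interval leaves out 0, and Mxd1 changes most between the fits, with 0.92 in the smaller one and 0.46 in the full one.

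The departure of M3-CKO replicate 3 touched 5 of the 9 tested members by 1 or more on the log2(CPM + 1) scale, always downwards, where 10.5% of all tested genes lay that far below the mean of M3-CKO replicates 1 and 2. The differences were -2.40 for Mxd1, -1.61 for Myc, -1.13 for Mga, -1.06 for Mnt and -1.03 for Mycl. Those of Mxi1 (-0.35), Mxd3 (-0.03), Max (0.00) and Mxd4 (0.12) were smaller. Over all genes the departure went with gene span: with genes in 4 equal bins by span, its median was 0.21 in the shortest bin and -0.20 in the longest. Myc and Mycl are in the shortest bin, Mnt in the second, Mxd1 in the third and Mga in the longest, and the part of span in their values was not tested. Proliferation markers were also lowest in M3-CKO replicate 3 and club cell markers highest there, as given above.

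The balance between MYC-type and MXD-type transcripts was compared within each library as the log2 ratio of the summed CPM of Myc, Mycl and Mycn to that of Mxd1, Mxd3, Mxd4, Mxi1, Mnt and Mga. Because long transcripts collect more reads, the ratio is not a ratio of molecules and is read only between libraries. It was -1.07, -1.45 and -1.72 in M3-CKO replicates 1 to 3, against -0.74, -1.57 and -1.67 in Ctrl replicates 1 to 3. The groups overlapped, with Ctrl replicate 1, the library with the most Myc, at the top. The means were -1.41 ± 0.33 in M3-CKO and -1.32 ± 0.51 in Ctrl (SD, n = 3 each), a difference of -0.09. Its sign rests on single libraries: it was 0.20 without Ctrl replicate 1 and 0.06 without M3-CKO replicate 3. The summed MXD-type level was 573.7, 651.8 and 347.3 CPM in M3-CKO replicates 1 to 3 and 487.3 to 589.1 CPM in Ctrl.

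The genes whose level followed Myc most closely were found by the root mean square difference of centred log2(CPM + 1) profiles over the 6 libraries, among 9642 genes with a mean of at least 10 CPM. They were Plk2, a polo-like kinase (0.31), Pard6b, a cell polarity protein (0.33), Edn1, the precursor of endothelin (0.36), Vdr, the vitamin D receptor (0.37), and Slc25a25, a mitochondrial carrier (0.37). For scale, the SD of Myc itself over the libraries was 0.88. All 5 were lowest in M3-CKO replicate 3 (Slc25a25 by a narrow margin), and all but Vdr were highest in Ctrl replicate 1. Plk2, for example, had 63.9, 65.5 and 23.8 CPM in M3-CKO replicates 1 to 3, against 113.3, 31.0 and 43.4 CPM in Ctrl replicates 1 to 3. The 6 libraries are few, and many genes can share such a profile by their place in the same libraries. Because the 5 genes were chosen for likeness to Myc in these libraries, their shared high and low libraries follow from the choice.

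**Figure D3:**
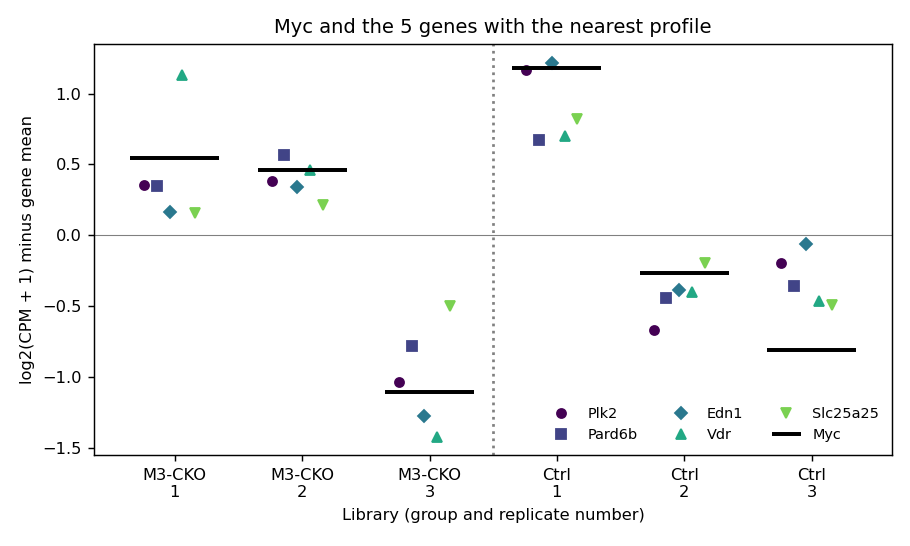
Log2(CPM + 1) minus each gene's mean in every library for Myc (black bars) and for the 5 genes nearest to it (coloured points), M3-CKO libraries left of the dotted line and Ctrl libraries right of it. The points share the low value of M3-CKO replicate 3 and the high value of Ctrl replicate 1 seen for Myc. The genes were chosen for this likeness in the same libraries, so it is not a separate result.

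The parallel MLX branch of the network, in which MLX pairs with the glucose sensors MLXIP and MLXIPL, was not called either. Mlxip had 95.7, 100.6 and 53.4 CPM in M3-CKO replicates 1 to 3, against 81.5, 77.5 and 80.4 CPM in Ctrl replicates 1 to 3 (log2 fold change 0.06, SE 0.24, edgeR adjusted p = 0.92). Like Mnt and Mga, it was lowest in M3-CKO replicate 3, and without that library its log2 fold change was 0.29 (edgeR adjusted p = 0.084). Mlx had 4.54, 5.48 and 8.34 CPM in M3-CKO libraries, against 4.04, 5.82 and 5.39 CPM in Ctrl libraries (0.27, SE 0.35, edgeR adjusted p = 0.72). Without M3-CKO replicate 3, Mlx was at -0.03. Mlxipl had 2 to 9 counts per library and was not tested. Of 3 tested targets of this branch edgeR, DESeq2 and limma-voom called 0, with 0 at an unadjusted p under 0.05. Txnip, the inhibitor of glucose uptake, had a log2 fold change of -0.54 (edgeR adjusted p = 0.58), or -0.17 without M3-CKO replicate 3, and Arrdc4, its relative, one of -0.17 (edgeR adjusted p = 0.86), or 0.20 without M3-CKO replicate 3.

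Among 12 MYC coactivators and cofactors, 1 was called, higher in M3-CKO, and 9 had a positive log2 fold change. It was Cdk9, the kinase of the elongation factor P-TEFb, which MYC brings to promoters. Cdk9 had 136.3, 145.3 and 131.2 CPM in M3-CKO libraries, against 91.4, 79.9 and 81.4 CPM in Ctrl libraries, with no overlap. It rose by a log2 fold change of 0.71 (SE 0.14, edgeR adjusted p = 0.043; DESeq2 adjusted p = 0.0086). The size stayed between 0.67 and 0.77 whichever library was left out, and the call was kept without M3-CKO replicate 3 (adjusted p = 0.0036). The call was lost without M3-CKO replicate 1 or 2 (adjusted p = 0.17 and 0.14) and without Ctrl replicate 1, 2 or 3 (0.11, 0.18 and 0.21). Ccnt1, the cyclin of the same factor, had 202.8, 219.9 and 126.2 CPM in M3-CKO replicates 1 to 3, against 121.4, 109.7 and 126.7 CPM in Ctrl replicates 1 to 3 (0.62, SE 0.22, edgeR adjusted p = 0.17). It was named after its values were seen, and without M3-CKO replicate 3 it was called (0.82, adjusted p = 0.0024). The background for such counts is that 1.74% of all tested genes were called higher with all 6 libraries. Without M3-CKO replicate 3, edgeR called 2 of the 12, both higher, where it called 13.7% of all genes higher.

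The corepressors that MXD and MNT proteins recruit had a median log2 fold change of -0.13, or -0.27 without M3-CKO replicate 3, with 6 of 8 negative. edgeR, DESeq2 and limma-voom called 0. At an unadjusted p under 0.05 there was 1, where 20.5% of all tested genes were under it. Hdac1, a histone deacetylase of the SIN3 complex, had 21.7, 21.1 and 48.4 CPM in M3-CKO replicates 1 to 3, against 45.5, 42.5 and 40.4 CPM in Ctrl replicates 1 to 3. M3-CKO replicates 1 and 2 were at about the same level and far below the other 4 libraries, so the log2 fold change was -0.49 with all libraries (edgeR adjusted p = 0.45) and -1.003 without M3-CKO replicate 3 (adjusted p = 0.0027). In that smaller fit edgeR called 11.3% of all genes lower.

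MGA works in the Polycomb complex PRC1.6. The list used here holds 9 of its other subunits and need not be complete. All 9 had a positive log2 fold change, with a median of 0.18, or 0.31 without M3-CKO replicate 3. None was called by edgeR, DESeq2 or limma-voom, and 2 had an unadjusted p under 0.05, where 20.5% of all tested genes did. They were Pcgf6, the subunit that defines the complex (0.56, SE 0.22, edgeR adjusted p = 0.21), and Ring1, a ubiquitin ligase subunit (0.47, SE 0.19, edgeR adjusted p = 0.22). The groups did not overlap for 1 of the 9, higher in M3-CKO, where 13.7% of all tested genes were in that position. Without M3-CKO replicate 3, edgeR called 3 of the 9, all higher, where it called 13.7% of all genes higher. They were Pcgf6 (0.70), Yaf2 (0.65) and Rybp (0.59). In that fit 7 of the 9 were positive, and L3mbtl2 (-0.15) and E2f6 (-0.07) were negative. Of 10 germline genes known as targets of this complex in mouse stem cells, 5 had a row and 1 was tested, Meioc (-0.35, edgeR adjusted p = 0.86). Their sum was 2.85 to 3.28 CPM in M3-CKO and 1.37 to 2.95 CPM in Ctrl.

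Of 14 genes that control the turnover of MYC protein, edgeR, DESeq2 and limma-voom called 0. At an unadjusted p under 0.05 there was 1, where 20.5% of all tested genes were under it. The median log2 fold change was -0.24, with 10 negative. The list was not split into genes that protect MYC protein and genes that degrade it, so its median has no single reading. Leaving out M3-CKO replicate 3 gave a median of -0.15. In that fit edgeR called 1 of the 14 lower, where it called 11.3% of all genes lower. It was Btrc, a ubiquitin ligase subunit (-0.69, adjusted p = 0.033). The groups did not overlap for 5 of the 14, all lower in M3-CKO, where 13.5% of all tested genes were in that position. These were Gsk3a, Gsk3b, Huwe1, Usp37 and Fbxl14. Gsk3b, a kinase that marks MYC for degradation, had 214.6, 224 and 151.7 CPM in M3-CKO replicates 1 to 3, against 287.2, 249 and 259.4 CPM in Ctrl replicates 1 to 3 (-0.43, SE 0.19, edgeR adjusted p = 0.24, and -0.28 without M3-CKO replicate 3). Its relative Gsk3a had a log2 fold change of -0.65 (SE 0.27, edgeR adjusted p = 0.23). Of the IGF2BP proteins, Igf2bp3 had 7.53, 6.28 and 5.80 CPM in M3-CKO libraries, against 2.95, 3.07 and 3.82 CPM in Ctrl libraries, with no overlap. It differed by 0.99 on the log2 scale (SE 0.31) and was not called (edgeR adjusted p = 0.13, and 0.036 without M3-CKO replicate 3). Igf2bp2 was at -0.19 (edgeR adjusted p = 0.71), and Igf2bp1 had at most 2 counts in any library and was not tested.

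The known targets of MYC were read by role, beginning with ribosome assembly. Of 22 genes of the nucleolus and ribosome assembly, 17 had a positive log2 fold change, where 51.9% of all tested genes did, and the median was 0.30. edgeR, DESeq2 and limma-voom called 0 of them. At an unadjusted p under 0.05 there were 4, where 20.5% of all tested genes were under it. The groups did not overlap for 9, of which 8 were higher in M3-CKO, where 13.7% of all tested genes were in that position. Rrp12, a ribosome export factor, had 14.2, 11.1 and 12.6 CPM in M3-CKO libraries, against 7.86, 6.56 and 5.28 CPM in Ctrl libraries (0.94, SE 0.26, edgeR adjusted p = 0.099). Nop16, a nucleolar protein, had 28.9, 25.9 and 34.1 CPM in M3-CKO libraries, against 19.8, 18.4 and 19.5 CPM in Ctrl libraries (0.62, SE 0.19, edgeR adjusted p = 0.12). The summed level was 1157, 1115 and 922.1 CPM in M3-CKO replicates 1 to 3, against 860.9, 881.5 and 831 CPM in Ctrl replicates 1 to 3. The sum was lowest in M3-CKO replicate 3 among M3-CKO libraries, although 15 of the 22 genes were higher there than the mean of replicates 1 and 2. Ncl, nucleolin, had 505, 518.5 and 275.1 CPM in M3-CKO replicates 1 to 3, against 306.7, 339.2 and 318.4 CPM in Ctrl replicates 1 to 3 and was named after its values were seen. Without M3-CKO replicate 3, 15 of the 22 were positive and 4 were called, all higher, where 13.7% of all genes were called higher. They were Rrp12 (0.94), Ncl (0.67), Nop16 (0.51) and Npm1 (0.35).

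The other target groups were mixed. The 14 genes of nucleotide and polyamine synthesis had a median of -0.05 with 6 positive. Of these, edgeR and limma-voom called 0, and 2 had an unadjusted p under 0.05, where 20.5% of all tested genes did. DESeq2 called 1 of the 14, where it called 7.54% of all genes. That was Mthfd2, a mitochondrial enzyme of one-carbon metabolism, at 39.0, 34.6 and 34.99 CPM in M3-CKO libraries, against 23.6, 16.6 and 20.4 CPM in Ctrl libraries (0.84, SE 0.19, edgeR adjusted p = 0.065; DESeq2 adjusted p = 0.019). Odc1, ornithine decarboxylase and a classic MYC target, had a log2 fold change of 0.58 (SE 0.19, edgeR adjusted p = 0.14). The 10 cell cycle targets had a median of 0.10. Of these, edgeR and limma-voom called 0, and 1 had an unadjusted p under 0.05. DESeq2 called 1 of the 10, beside the same 7.54% of all genes. That was E2f1, the activator of S-phase genes, at 20.4, 19.4 and 15.6 CPM in M3-CKO libraries, against 8.63, 11.3 and 5.62 CPM in Ctrl libraries (1.11, SE 0.30, edgeR adjusted p = 0.092; DESeq2 adjusted p = 0.023). Its relative E2f3 was at 0.58 (edgeR adjusted p = 0.25), and at 0.73 without M3-CKO replicate 3 (edgeR adjusted p = 0.046).

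For 9 targets in metabolism and uptake the median was -0.08, and edgeR, DESeq2 and limma-voom called 0. At an unadjusted p under 0.05 there were 0, where 20.5% of all tested genes were under it. Hk2, hexokinase 2, had a log2 fold change of 0.66 (edgeR adjusted p = 0.31; 0.97 and adjusted p = 0.0030 without M3-CKO replicate 3), and Slc1a5, a glutamine carrier, one of 0.20 (edgeR adjusted p = 0.51). For 8 targets in translation and protein folding the median was 0.02, and the same tools called 0, with 1 at an unadjusted p under 0.05, Hspd1, the mitochondrial chaperonin (0.53, edgeR adjusted p = 0.12). Its partner Hspe1 was at 0.33 (edgeR adjusted p = 0.47). For 8 genes known to be repressed by MYC the median was -0.20, and edgeR and limma-voom called 0. There was 1 at an unadjusted p under 0.05 that DESeq2 called, where DESeq2 called 7.54% of all genes. That was Cdkn1c, a cell cycle inhibitor, at 15.9, 17.1 and 13.8 CPM in M3-CKO libraries, against 36.7, 24 and 30.4 CPM in Ctrl libraries (-0.96, SE 0.22, edgeR adjusted p = 0.065; DESeq2 adjusted p = 0.013). Cebpa, a differentiation factor, was at -0.44 (edgeR adjusted p = 0.30). When M3-CKO replicate 3 was left out, edgeR called 1 nucleotide synthesis target higher, 2 cell cycle targets higher, 1 metabolic target higher and 2 lower, and 1 translation and folding target in each direction. Of the repressed genes it called 1 higher, Cdkn1a (1.01), and 2 lower. In the same fit 13.7% of all genes were called higher and 11.3% lower. The medians in that fit were 0.01 for nucleotide synthesis, 0.28 for the cell cycle, -0.0022 for metabolism, -0.01 for translation and folding and -0.13 for the repressed genes.

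**Figure D4:**
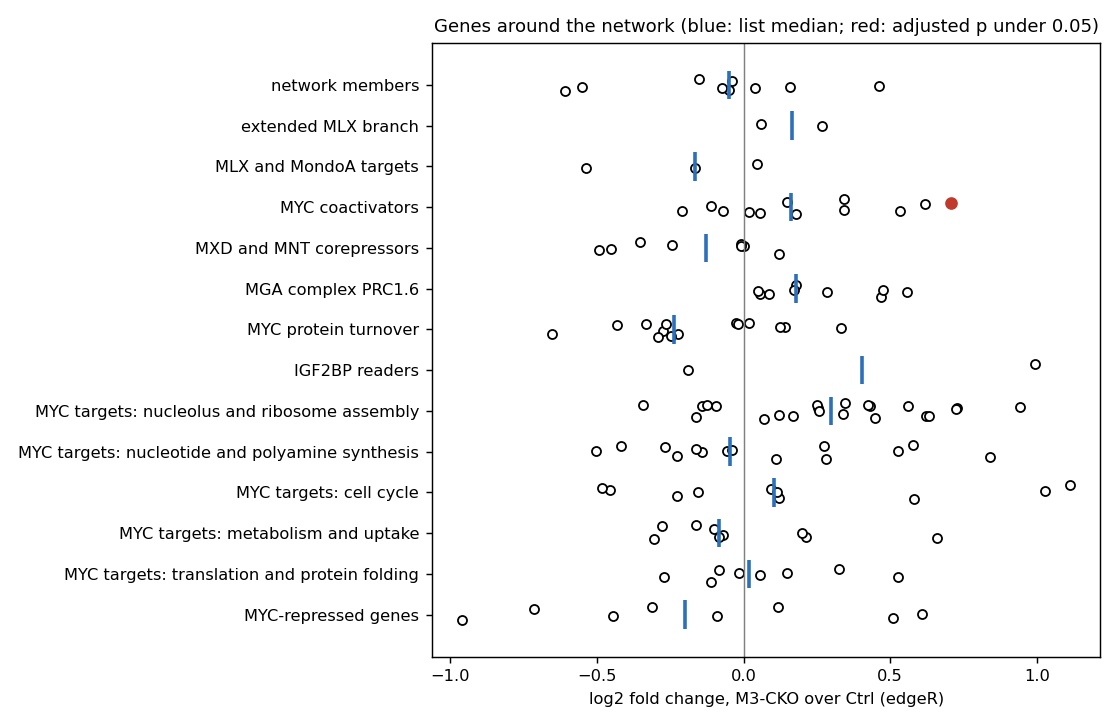
Log2 fold change (M3-CKO over Ctrl, edgeR, all 6 libraries) of every tested gene in each list around the network; blue bars are list medians and the filled red point is the called gene, Cdk9, at 0.71. Network members scatter around 0, all 9 listed PRC1.6 subunits lie above 0, and 17 of 22 nucleolar targets lie above 0. The germline list, with 1 tested gene, is not drawn.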

How the data were processed

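The authors deposited whole-number counts per gene without normalization, 1 column per RNA-seq library. The submitters' processing notes name featureCounts, HISAT2, Trim Galore and build mm39. Versions, annotation, strand setting and the treatment of multiply mapped reads are unstated in the sources used here, so antisense or overlapping genes and near-identical copies, common among ribosome assembly genes, are uncertain.

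Counts were tested with edgeR 4.0.16 in R 4.3.3 (filterByExpr, TMM, quasi-likelihood test, no covariate, two-sided, Benjamini-Hochberg over 13528 genes, called at an adjusted p under 0.05), and an adjusted p with no tool named is from edgeR. DESeq2 1.42.0 and limma-voom (limma 3.58.1) were alternatives. Intervals are 95%, per gene. The SE is the log2 fold change over the square root of F. The steps were tested on simulated counts. Nothing in the labels ties a replicate to its own mouse or culture: p-values therefore reflect library-to-library spread, which may be technical. No 2 libraries matched within sampling noise (chi-square per gene 6.14 or more, where sampling alone gives about 1). Floors of 3 counts cover counting error only.

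The members and lists were chosen with earlier results of these data known. Outside the members, the text names Mettl3, the MLX branch, up to 4 called genes per list (otherwise the 2 with the lowest p) and the 5 genes nearest to Myc in profile. Other genes named (Huwe1, Usp37, Fbxl14, Btrc, Yaf2, Rybp, L3mbtl2, E2f6, Npm1, Ncl, Ccnt1, Cdkn1a, Ptprc, Cd68, Itgam, Col1a1 and Pvt1) were chosen after their values were seen. The values of 1 gene that this rule names are not reported here.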

Additional observations from a re-analysis of the deposited data

How the results depend on the processing

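Over the 13 alternatives no tested member was called, except that 2 (Mxd1 and Mxd4) were called without M3-CKO replicate 3. The count of called genes over the whole table, 393, was 1200 with the DESeq2 Wald test, 740 with no filter on low counts, 20 with the replicate number as a block, and 0 to 3483 when 1 library was left out (3483 without M3-CKO replicate 3, 14 and 18 without M3-CKO replicates 1 and 2, 1 without Ctrl replicate 2, and 0 without Ctrl replicate 1 or 3, where 2378 and 1963 genes had an unadjusted p under 0.05). The replicate numbers were not treated as pairs: the deviations of same-numbered libraries from their group means had r of -0.02, 0.02 and -0.11, and no library agreed best with its own number. With the block, Cdk9 lost its call (adjusted p = 0.14), no member gained one, and Mga was at -0.041, and at -0.051 with limma-voom (0.04 with edgeR). The signs of other values near 0 turned with single libraries. Leaving out 1 library gave log2 fold changes from -0.50 to 0.67 for Myc, -0.29 to 0.23 for Mycl, -0.17 to 0.055 for Mxi1, -0.28 to 0.20 for Mnt and -0.23 to 0.33 for Mga. The ranges were -0.028 to 0.44 for Mlx, -0.082 to 0.29 for Mlxip, -0.46 to 0.20 for Arrdc4, -1.42 to 0.16 for Meioc, -0.30 to 0.014 for Igf2bp2 and -0.81 to 0.13 for Top2a. They were -0.62 to 0.46 for Plk2, -0.14 to 0.57 for Pard6b, -0.86 to 0.12 for Edn1, -0.26 to 0.89 for Vdr and -0.42 to 0.35 for Slc25a25. Mettl3 ranged from -0.78 to -0.62 and was called only without M3-CKO replicate 3 (-0.67). The difference in the MYC to MXD log2 ratio was -0.09 under each scaling, which cannot move a ratio within a library, and -0.09 without Mga. Leaving out 1 library, an alternative chosen after seeing the data, gave -0.26 to 0.20. The cause of these shifts was not tested. Mycn, Mlxipl and Igf2bp1 were too low to test, and Mxd3 and Meioc rest on few counts.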

Other observations

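Pvt1, a long noncoding RNA whose gene neighbours Myc, was looked at after its values were seen and did not pass the filter on low counts. It had 69, 29 and 9 counts in M3-CKO replicates 1 to 3, against 4, 8 and 5 counts in Ctrl replicates 1 to 3. In scaled levels these were 6.66, 3.31 and 0.915 CPM in M3-CKO and 0.437, 0.846 and 0.562 CPM in Ctrl, so the groups did not overlap but M3-CKO replicate 3 lay close to Ctrl replicate 2. Over all 6 libraries DESeq2 called it (log2 fold change 2.57, adjusted p = 0.028), and edgeR with no filter on low counts did not (2.53, adjusted p = 0.072). Without M3-CKO replicate 3 edgeR called it (2.99, adjusted p = 0.0057). Without Ctrl replicate 1, 2 or 3 edgeR did not call it (adjusted p from 0.27 to 0.33). Myc itself, in the same libraries, was not called in any fit. Over all 6 libraries the order by Pvt1 was not the order by Myc, as Ctrl replicate 1 had the most Myc and the least Pvt1. Within M3-CKO the order was the same for both genes, and within Ctrl the Pvt1 order rests on 4 to 8 counts. A link between Pvt1 and Myc was not tested.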
